A study of Sus scrofa with 61 samples.

Results

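KHK and SLC2A5 are a kinase and a transporter of fructose, and both were read on porcine liver arrays at 4 stages of life. KHK, ketohexokinase, phosphorylates fructose to fructose-1-phosphate, and SLC2A5, the transporter also called GLUT5, carries fructose across cell membranes. All probe-sets that the platform annotation maps to either symbol were taken, which gave 1 probe-set each (Entrez gene 100523241 for KHK and 100625876 for SLC2A5). These are 2 of 23999 probe-sets on the array that are no controls, and 2 of the 6765 genes named by a probe-set with a single symbol. Both genes were selected on their measured stage differences in these same arrays, so those differences are given as a description, with no test.

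The 61 livers came from offspring of German Landrace gilts that received a low protein diet during gestation (LP offspring), 1 array per animal. There were 16 fetuses at 94 days after conception (94 dpc), 14 piglets at 1 day after birth (1 dpn), 15 weanlings at 28 dpn and 16 adults at 188 dpn. Fetuses were obtained by Caesarean section, and the newborns were killed at 1 dpn. The remaining live-born piglets were raised by foster sows on a standard diet and weaned at 28 dpn. Animals of 28 dpn and 188 dpn were fasted overnight, whereas no fast is described for the newborns, so stage and feeding cannot be told apart. Animals were chosen as pairs of siblings, at 94 dpc and 1 dpn a light and a heavy one of the same litter. The labels do not say which animals share a litter. The p-values below treat all animals of a stage as independent. All 9 of the hepatocyte markers with a named probe-set (10 were listed) exceeded the median signal of the array in 50% or more of the animals, at each of the 4 stages.

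Fructose is the most abundant sugar in the blood of the pig fetus, where the placenta makes it from glucose, and it largely disappears after birth. In the adult liver fructose arrives from the gut, KHK phosphorylates it, fructose-1-phosphate is cleaved, and triokinase (TKFC) returns the resulting glyceraldehyde to the triose pool. SLC2A5 is best known from the small intestine, while SLC2A2 (GLUT2) is regarded as the main hexose carrier of the hepatocyte membrane.

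KHK and SLC2A5 were high at opposite ends of development. SLC2A5 lay above the array median in all 16 fetuses and was near or below it in the livers after birth, whereas KHK lay below it in all 16 fetuses and far above it from 28 dpn on. Signals are scaled intensities in arbitrary units, and the array medians against which they are read ranged over 152 to 178 at 94 dpc, 140 to 162 at 1 dpn, 105 to 131 at 28 dpn and 95.1 to 128 at 188 dpn. In whole liver, fewer cells of a type and less RNA per cell cannot be told apart. As array signals carry no read depth, the number of animals limits the precision.

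The KHK signal ranged between 19.2 and 140 in fetuses (median 57.4) and between 8.41 and 152 in newborns (median 96.6), and a single newborn exceeded its array median. At 28 dpn the 15 animals spanned 2766 to 6535 (median 4502), and at 188 dpn the 16 animals spanned 4667 to 9671 (median 7195). Every animal of the later pair of stages was thus above every fetus and newborn, and the ranges of fetuses and newborns overlapped. The mean log2 signals were 5.71 ± 0.87 at 94 dpc (SD, n = 16), 6.17 ± 1.31 at 1 dpn (n = 14), 12.10 ± 0.38 at 28 dpn (n = 15) and 12.80 ± 0.27 at 188 dpn (n = 16).

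SLC2A5 was high in the fetuses. Their signals ran from 276 to 2672 (median 981) and all 16 exceeded the array median. After birth the signals spanned 8.00 to 164 at 1 dpn (median 62.5), 1.67 to 92.9 at 28 dpn (median 41.3) and 3.46 to 85.3 at 188 dpn (median 36.0). Of the 45 postnatal livers, 1 newborn exceeded its array median, and no fetus overlapped with any of them. Mean log2 signals were 9.67 ± 1.05 at 94 dpc (SD, n = 16), 5.57 ± 1.20 at 1 dpn (n = 14), 4.80 ± 1.74 at 28 dpn (n = 15) and 4.97 ± 1.14 at 188 dpn (n = 16). The 3 postnatal means differed by less than the spread between animals.

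**Figure D1:**
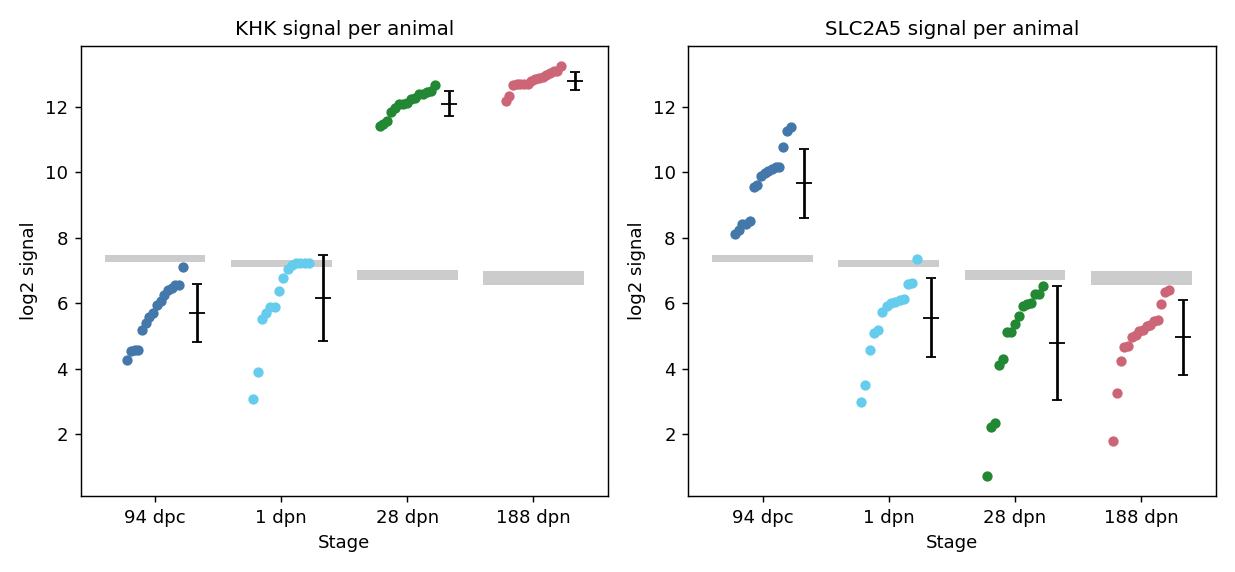
Log2 signal of KHK (left) and SLC2A5 (right) in each animal at the 4 stages; bars to the right of the points give the mean and SD, and grey bands the range of the array medians at that stage. KHK was above the band in all 31 animals of 28 dpn and 188 dpn, and SLC2A5 in all 16 fetuses.

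Differences between adjacent stages are given as the later minus the earlier mean log2 signal, with the SE from the spread at both stages. In period I (1 dpn minus 94 dpc) SLC2A5 differed by -4.10 (SE 0.41), 17.2-fold lower in newborns, and the lowest fetus lay 0.75 above the highest newborn on the log2 scale. With every signal below its array median raised to that median, the difference was -2.43, or 5.39-fold, which was place 31 among the decreases of 11625 probe-sets tested that way. The newborn values are weak signals with no reliable order. KHK differed by 0.46 (SE 0.41) in the same period and did not pass the filter on weak signals.

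In period II (28 dpn minus 1 dpn) KHK differed by 5.94 (SE 0.36), 61.2-fold higher at 28 dpn, and the lowest weanling lay 4.18 log2 units above the highest newborn. Raising weak signals to the array median gave 4.86, or 29.1-fold, which was place 4 among the increases of 11795 probe-sets. SLC2A5 differed by -0.76 (SE 0.55) with overlapping ranges and did not pass the filter. Period II shares its newborn arrays with period I, and its weanling arrays with period III.

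In period III (188 dpn minus 28 dpn) KHK differed by 0.70 (SE 0.12), 1.62-fold higher at 188 dpn, where 13 of the 16 adults lay above the highest weanling. SLC2A5 differed by 0.17 (SE 0.53), and by -0.16 with weak signals raised to the array median.

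Markers of other cell types moved over the same stages. The summed signal of 6 erythroid markers spanned 965 to 4037 at 1 dpn, against 2625 to 31440 at 94 dpc, and 5 of the 6 fell and none rose in period I. The summed signal of 8 macrophage markers spanned 62640 to 94020 at 28 dpn, against 20940 to 38830 at 1 dpn, with no overlap, while that of the 9 hepatocyte markers spanned 280300 to 515000, against 355600 to 565900. Of 8 hepatocyte markers tested in period II, 5 fell and 1 rose. In the same period the 7 named T and NK cell markers summed to 788 to 4688 at 28 dpn, against 216 to 551 at 1 dpn, and 4 of 4 tested rose. The 7 granulocyte markers summed to 486 to 2041 at 28 dpn, against 2340 to 23730 at 1 dpn, and 6 of 6 tested fell. In period III, 6 of 7 macrophage markers tested fell and 1, FOLR2, rose. Over all probe-sets tested, 26.1% were called higher and 41.6% lower in period I. The shares were 29.0% and 41.4% in period II, and 18.3% and 35.7% in period III. Of 3 named intestinal markers, FABP2 lay below the array median in all 61 livers. VIL1 fell in periods I, II and III and SLC5A1 in period I, as called by limma. The part of these cells in the KHK and SLC2A5 differences was not tested.

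The other genes that handle fructose and the sugars around it were tested with limma across all probe-sets, and a gene is said to have risen or fallen where neither P nor Storey's q exceeded 0.05. Of 74 genes listed beside KHK and SLC2A5, 45 had a named probe-set. AKR1B1 and MLXIPL were not analysed here. In period I, 18 of 34 genes tested rose and 10 fell, against 26.1% of all 12227 probe-sets higher and 41.6% lower. In period II, 15 of 38 rose and 12 fell, against 29.0% higher and 41.4% lower. When each array's median was subtracted, the period II counts were 23 higher and 2 lower of 35 tested, against 48.2% of all probe-sets higher and 23.1% lower under that scaling. In period III, 10 of 31 rose and 10 fell, against 18.3% higher and 35.7% lower. The median difference of the genes tested was 0.30, 0.15 and -0.09 in periods I, II and III, and that of all probe-sets tested was -0.16, -0.14 and -0.14.

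Among the 7 further genes of fructose breakdown with a named probe-set, 4 of 5 tested rose and none fell in period I. TPI1, the triose phosphate isomerase, rose by 1.13 (SE 0.11, q = 9.28e-11) and GLYCTK, glycerate kinase, by 0.81 (SE 0.12, q = 2.82e-07). AKR1A1 and ALDH2, which reduce and oxidise aldehydes, rose by 0.57 and 0.29 (SE 0.08 and 0.09). In 3 of 10 alternatives ALDH2, at 0.19 to 0.26, missed the filter on SD and was not tested.

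TKFC, the triokinase that acts downstream of KHK, had signals of 245 to 783 in fetuses (median 487), 140 to 1259 in newborns (median 563), 495 to 1352 at 28 dpn (median 934) and 543 to 1078 at 188 dpn (median 762). It was above the array median in 60 of the 61 livers, and the ranges of adjacent stages overlapped. In period I it differed by 0.15 (SE 0.22, q = 0.115) and was not called. In period II it rose by 0.76 (SE 0.22, q = 0.000623), 1.69-fold. In period III it fell by 0.27 (SE 0.13, q = 0.0231), while KHK was higher, but this call was lost under 7 of 10 alternatives, at differences of -0.27 to -0.11, among them Benjamini-Hochberg adjustment (adjusted p = 0.0825).

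In periods II and III other breakdown genes were called as well. ALDH9A1, an aldehyde dehydrogenase, rose by 0.96 (SE 0.09, q = 9.57e-12) in period II without overlap, and ALDH2 by 0.72 (SE 0.09). ADH5, the class III alcohol dehydrogenase, fell by 0.37 (SE 0.08) in period II, lost with the array median subtracted (-0.02), and by 0.50 (SE 0.09) in period III. GLYCTK rose by 0.35 (SE 0.09, q = 0.000504) in period III. In the list as a whole, 3 of 6 tested rose and 1 fell in period II, and 1 of 5 rose and 2 fell in period III.

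SORD, sorbitol dehydrogenase, makes fructose from sorbitol and was the only gene of the polyol path with a named probe-set. Its signal was between 22412 and 37036 at 1 dpn (median 30106), against 14335 to 22726 at 94 dpc (median 16897). The rise was 0.76 (SE 0.08, q = 4.76e-10), and the ranges overlapped slightly. In period II it rose by a further 0.24 (SE 0.09, q = 0.00394), and in 3 of 10 alternatives, at 0.19 to 0.24, it missed the filter on SD and was not tested.

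Of the 6 other SLC2 transporters with a named probe-set, 5 were tested in each period. In period I, when SLC2A5 was lower in newborns, 2 of the 5 rose and 1 fell, and the counts were 1 and 3 in period II and 1 and 2 in period III. SLC2A2 lay above the array median in every liver, and its signals were 1329 to 3163 at 1 dpn (median 2317), against 948 to 2379 in fetuses (median 1732). It rose by 0.45 (SE 0.14, q = 0.00122) in period I and fell by 0.55 (SE 0.13, q = 5.11e-05) in period II, and the period II call was lost when the array median was subtracted (-0.21). In period III it differed by -0.09 (SE 0.14).

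SLC2A8 (GLUT8), an intracellular hexose transporter, was lowest in fetuses and adults. Newborn signals were 486 to 1127 (median 790), against 10.1 to 420 in fetuses (median 227), with no overlap. The rise in period I was 2.28 (SE 0.35, q = 2.53e-07). It was 1.77, or 3.42-fold, with weak signals raised to the array median, which 9 of the 16 fetuses exceeded. SLC2A8 fell by 1.20 (SE 0.35, q = 0.00152) in period III. Its signals were 10.8 to 531 in adults (median 315), against 239 to 1145 at 28 dpn (median 612). Its lowest adult signal of 10.8 stood apart, as the next lowest was 133. Its fall of 0.42 in period II was lost with the array median subtracted (-0.07) and with all 4 stages in 1 fit.

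SLC2A1 (GLUT1), the glucose carrier of red cells and many other tissues, fell by 0.82 (SE 0.13, q = 4.39e-07) in period II. SLC2A3 (GLUT3), known from neurons and leukocytes, fell by 0.54 in period I, rose by 0.56 in period II and fell by 0.80 in period III (SE 0.21, 0.18 and 0.09). The period I call of SLC2A3 was lost under quantile normalization (-0.41) and with the array median subtracted (-0.40). SLC2A4 (GLUT4), the insulin-responsive carrier of muscle and fat, rose by 0.41 (SE 0.18) in period III, a call lost under 5 of 10 alternatives, with 0.38 to 0.41 under 4 of them and 0.10 with the array median as floor.

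**Figure D2:**
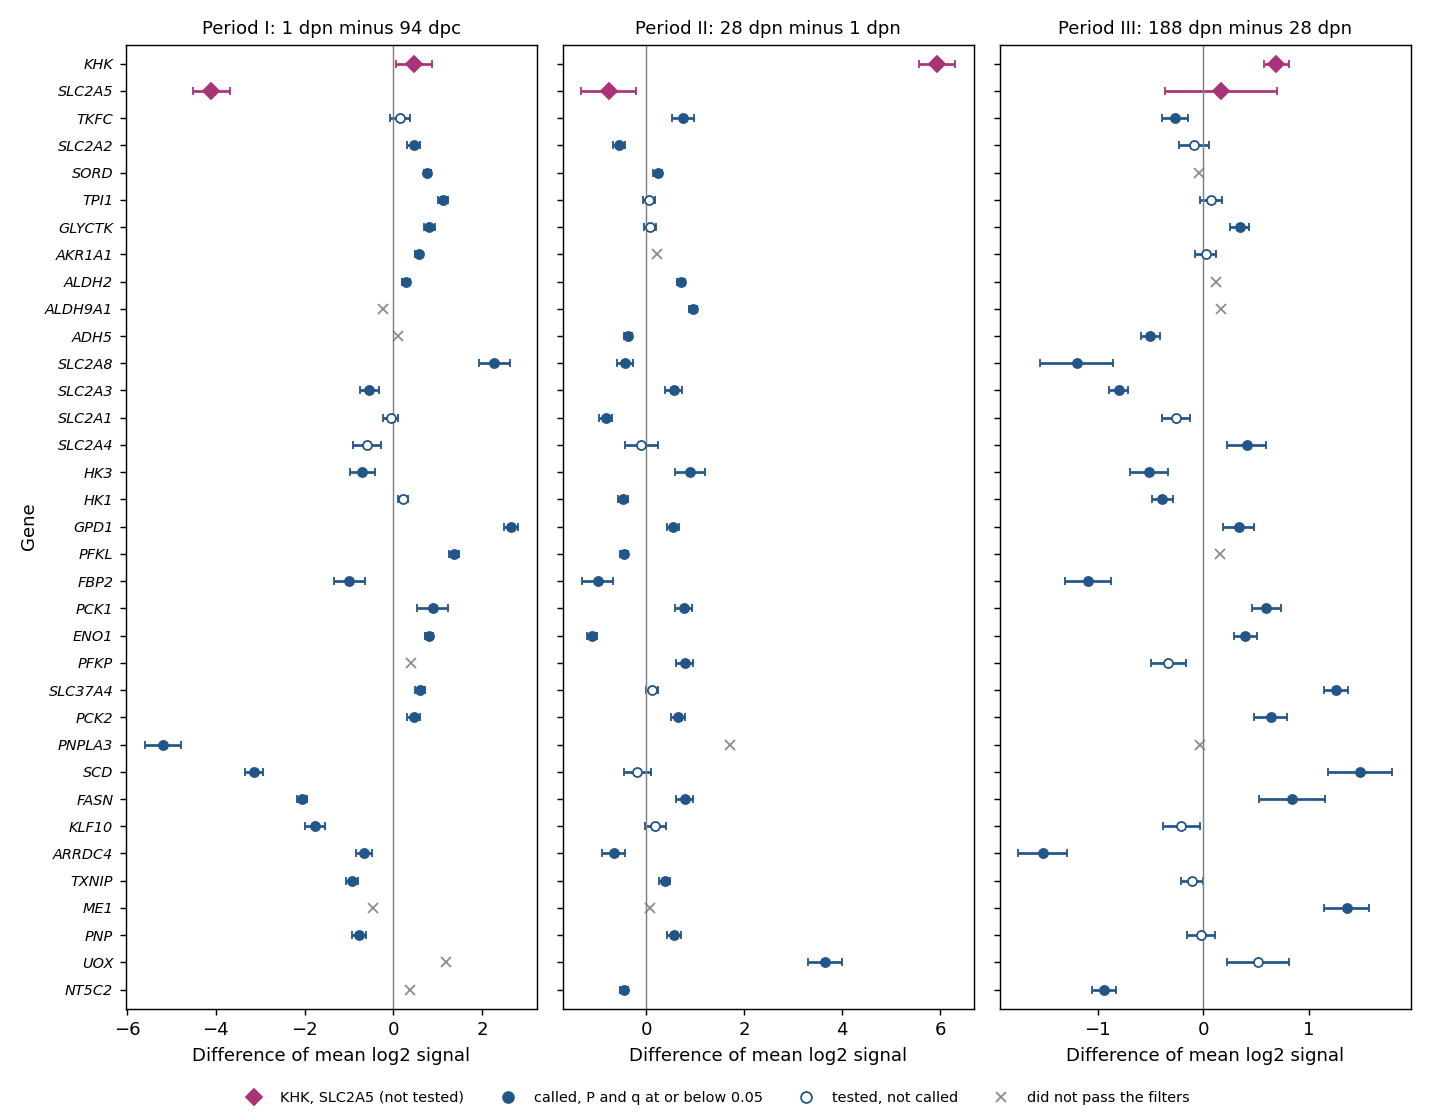
Difference of mean log2 signal (later minus earlier stage) with its SE in the 3 periods for KHK, SLC2A5 and the 33 named pathway genes; the panels have their own scales. KHK stands at 5.94 in period II and SLC2A5 at -4.10 in period I.

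Genes of the triose phosphates and of glucose production rose together in period I, when 10 of 13 tested rose and 1 fell. GPD1, the cytosolic glycerol-3-phosphate dehydrogenase, had signals of 1746 to 3418 in newborns (median 2741), against 196 to 679 in fetuses (median 431). It rose by 2.65 (SE 0.16, q = 7.81e-16), 6.30-fold and without overlap, and again by 0.55 (SE 0.13, q = 4.83e-05) in period II. PFKL, the liver phosphofructokinase, rose by 1.36 (SE 0.11), PCK1, a key enzyme of gluconeogenesis, by 0.88 (SE 0.36) and ENO1, enolase, by 0.81 (SE 0.09). FBP2, the muscle fructose bisphosphatase, was the gene that fell, 1.99-fold (SE 0.35 on the log2 scale).

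As deposited, period II had no common direction in this list, as 5 of 15 tested rose and 5 fell. PFKL fell by 0.45 (SE 0.09) and FBP2 by 0.98 (SE 0.32). Both calls were lost with the array median subtracted (-0.10 and -0.63), while that of ENO1 was kept. ENO1 fell 2.15-fold (SE 0.10 on the log2 scale), PFKP, the platelet phosphofructokinase, rose by 0.79 (SE 0.17), and PCK1 rose by 0.77 (SE 0.18). PCK2, the mitochondrial form, rose by 0.65 (SE 0.14), but another of its probe-sets fell by 0.92 (q = 4.05e-08). In period III SLC37A4, the glucose-6-phosphate carrier of the endoplasmic reticulum, rose by 1.26 (SE 0.12, q = 1.40e-10) without overlap. With the array median subtracted it was also called higher in period II (0.47, q = 0.000478).

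UOX, urate oxidase, turns urate into allantoin at the end of purine breakdown, a route that rapid fructose phosphorylation is known to feed through loss of ATP. Its signals were 614 to 2145 at 28 dpn (median 956), against 7.53 to 283 at 1 dpn (median 86.8), and in fetuses 8.41 to 110 (median 48.3). The rise in period II was 3.65 (SE 0.34, q = 2.86e-11), 12.5-fold and without overlap, and 2.71, or 6.55-fold, with weak newborn signals raised to the array median. At 188 dpn the signals spanned 274 to 3827 (median 1832), and the difference of 0.52 (SE 0.30, q = 0.0418) missed the threshold on P. It was called at 0.91 (q = 0.000323) once arrays whose 3' to 5' control difference stood apart were left out, at 0.67 without the least correlated array of each stage and at 0.68 with the array median subtracted. PNP, which splits purine nucleosides, fell by 0.77 (SE 0.15) in period I and rose by 0.57 (SE 0.14) in period II, and NT5C2, a nucleotidase, fell by 0.94 (SE 0.11) in period III.

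The genes that answer to carbohydrate, listed as targets of MLXIPL (ChREBP), mostly fell after birth, as 6 of 7 tested fell and 1 rose in period I. PNPLA3, a lipase of lipid droplets, had newborn signals of 2.97 to 116 (median 39.9), against 466 to 2157 in fetuses (median 1029). It fell by 5.20 (SE 0.40, q = 3.62e-13) without overlap, and by 2.80, or 6.94-fold, with the newborn signals, all below the array median, raised to that median. SCD, the stearoyl-CoA desaturase, fell by 3.14 (SE 0.20), FASN, fatty acid synthase, by 2.05 (SE 0.12) and KLF10, a transcription factor, by 1.76 (SE 0.22). In period II, when KHK was higher, 2 of 6 tested rose and 1 fell. In period III, 3 of 7 rose and 1 fell. SCD rose by 1.49 (SE 0.30) and ME1, malic enzyme, by 1.36 (SE 0.21), whereas ARRDC4, an arrestin-domain protein, fell by 1.52 (SE 0.23).

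Of the hexokinases, which phosphorylate glucose and also fructose with low affinity, HK1 and HK3 had a named probe-set. HK1 fell by 0.47 (SE 0.11) in period II, lost with the array median subtracted (-0.12), and by 0.39 (SE 0.10) in period III. HK3, known from leukocytes, fell by 0.71 (SE 0.28), rose by 0.90 (SE 0.30) and fell by 0.51 (SE 0.18) in periods I, II and III, but another of its probe-sets rose by 3.04 (q = 3.98e-09) in period III, and its calls in periods I and III were each lost under 3 of 10 alternatives.

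**Figure D3:**
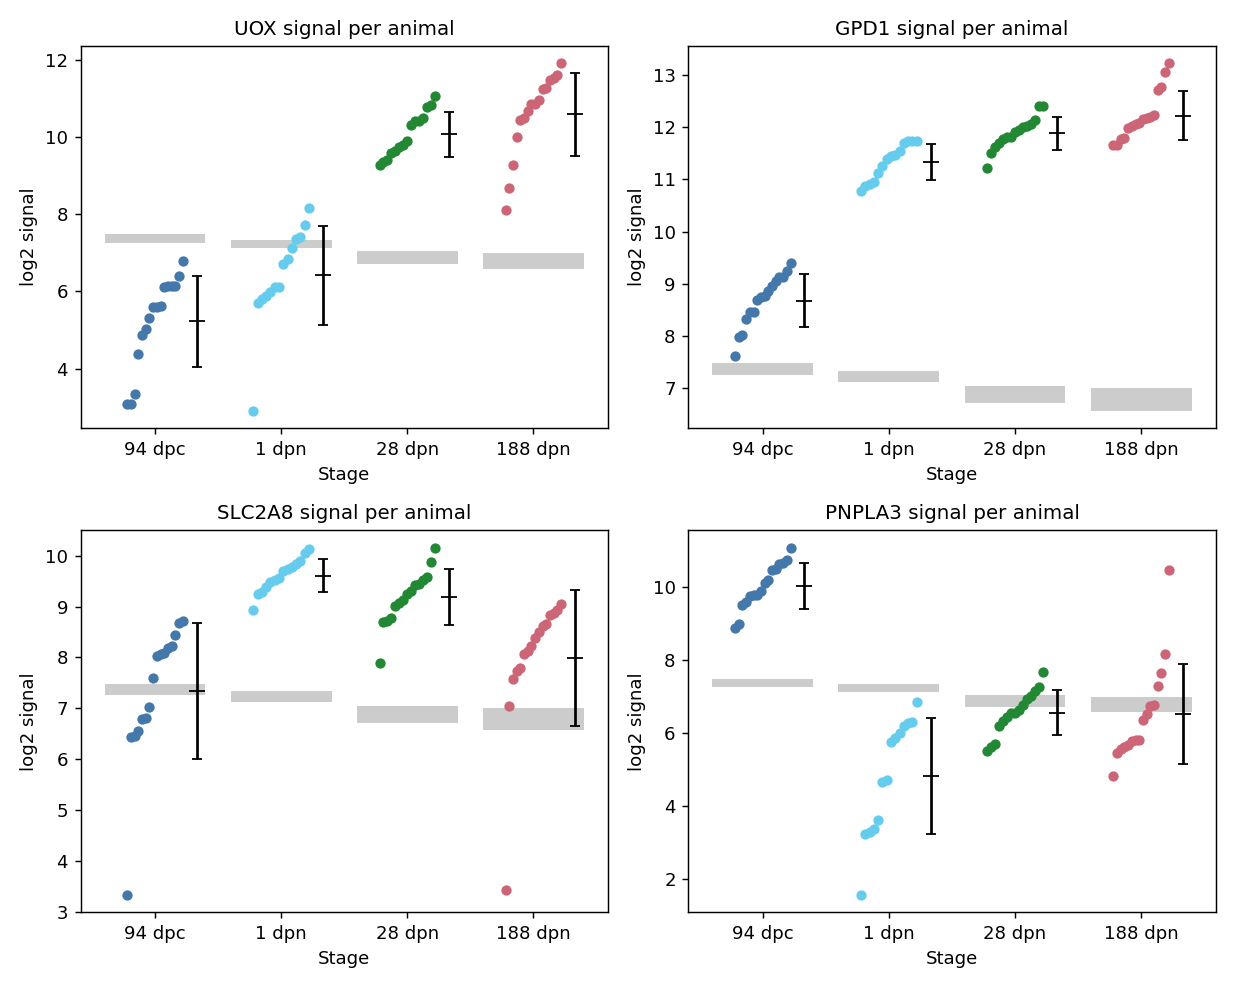
Log2 signal of UOX, GPD1, SLC2A8 and PNPLA3 in each animal at the 4 stages, with mean and SD bars and grey bands for the range of the array medians. UOX was above the band in all 15 animals at 28 dpn, and PNPLA3 lay below its array median in all 14 newborns.

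Variation between animals of 1 stage was not used to choose the genes. The SD of SLC2A5 among fetuses, 1.05, exceeded that of 99.7% of the 9004 probe-sets above the array median on all 94 dpc arrays, whose median SD was 0.28. The fetal values fell on either side of a gap of 1.04 on the log2 scale, with 5 fetuses at 276 to 367 and 11 at 753 to 2672. As the fetuses were chosen for low or high weight within litters, they are no random sample. The part of weight and litter in this spread was not tested. For KHK the SD exceeded that of 78.5% of 9261 probe-sets at 28 dpn and of 31.9% of 8817 at 188 dpn.

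KHK was set against TKFC, SLC2A5 and SLC2A2, and SLC2A5 against PNPLA3, within each stage, by two-sided permutation of the animals. Of these 16 relations, 11 involve a gene below the array median in most animals of the stage, so they say nothing about a relation and are not given. In the other 5, no relation passed a Benjamini-Hochberg adjusted p of 0.05, whether over the 5 or over all 16. KHK and TKFC had r = 0.55 at 28 dpn (permutation p = 0.0333, adjusted p = 0.0556 over the 5 and 0.178 over the 16, n = 15), and rho = 0.39 (permutation p = 0.15, adjusted p = 0.187 and 0.398). At 188 dpn they had r = 0.54 (permutation p = 0.0295, adjusted p = 0.0556 and 0.178, n = 16), and rho = 0.50 (permutation p = 0.051, adjusted p = 0.187 and 0.398). Without the 2 animals farthest from the KHK median, r was 0.52 at 28 dpn and 0.33 at 188 dpn. When array medians were subtracted, the r of 188 dpn was 0.72 with an adjusted p of 0.00915 over the 5 and 0.0293 over the 16, and rho was 0.66 with 0.0322 and 0.103. That subtraction takes the same value from both genes of an animal, which by itself can alter r. Under quantile normalization r was 0.61 (permutation p = 0.0104, adjusted p = 0.052 and 0.166). There rho was 0.53 (permutation p = 0.0386, adjusted p = 0.193 and 0.417).

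KHK and SLC2A2 had r = -0.55 at 188 dpn (permutation p = 0.0268, adjusted p = 0.0556 and 0.178, n = 16) and rho = -0.40 (permutation p = 0.123, adjusted p = 0.187 and 0.398), with r = -0.56 without the 2 farthest animals. That r was weaker with array medians subtracted, at -0.35 (permutation p = 0.179), and under quantile normalization, at -0.48 (permutation p = 0.0576). At 28 dpn they had r = -0.29 (permutation p = 0.288, adjusted p = 0.36 and 0.626, n = 15) and rho = -0.42 (permutation p = 0.119, adjusted p = 0.187 and 0.398). In fetuses, SLC2A5 and PNPLA3 had r = 0.13 (permutation p = 0.624, adjusted p = 0.624 and 0.666, n = 16) and rho = 0.09 (permutation p = 0.756, adjusted p = 0.756 and 0.864). Within the 11 fetuses above the gap in SLC2A5, r was -0.43 (permutation p = 0.193, adjusted p = 0.35 over 5 relations there) and rho -0.48 (permutation p = 0.138, adjusted p = 0.345). With the summed erythroid markers SLC2A5 had r = -0.43 over the 16 fetuses (permutation p = 0.0985, adjusted p = 0.276) and rho = -0.44 (permutation p = 0.0935, adjusted p = 0.327), and r = -0.002 within those 11 (permutation p = 0.996). The 11 fetuses were picked on their SLC2A5 values, which narrows its range and by itself alters r. The values within the 11 therefore say nothing about either relation.

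Among the adults KHK was lower where the 3' to 5' difference of the GAPDH controls was larger. Its relations with that difference of the EF1A and beta-actin controls did not pass an adjusted p of 0.05. The log2 difference between the 3' and 5' control probe-sets of GAPDH correlated with KHK at 188 dpn with r = -0.86 (permutation p = 4e-05, adjusted p = 0.00056 over 14 such relations, n = 16) and rho = -0.82 (permutation p = 0.00022, adjusted p = 0.00308). Without the 2 farthest animals r was -0.81, and without the 4 arrays with an outlying 3' to 5' difference it was -0.82 (permutation p = 0.00177, n = 12). The same difference of EF1A ran the other way, with r = 0.62 (permutation p = 0.0126, adjusted p = 0.0587) and rho = 0.65 (permutation p = 0.00804, adjusted p = 0.0563), and that of beta-actin had r = 0.35 (permutation p = 0.181, adjusted p = 0.395). KHK and the array median had r = -0.62 (permutation p = 0.0095, adjusted p = 0.0587) and rho = -0.49 (permutation p = 0.0524, adjusted p = 0.245). At 28 dpn the r of KHK with the GAPDH difference was 0.21 (permutation p = 0.456, adjusted p = 0.709, n = 15), and the difference between the stages was not tested. Of 8817 probe-sets above the array median on all adult arrays, 12 had an r with the GAPDH difference at or below that of KHK, and the median r was 0.06.

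The GAPDH difference ranged over 0.46 to 0.97 at 188 dpn, against 0.64 to 1.09 at 28 dpn. With it as a covariate, at a single slope of -0.62 for both stages, the KHK difference of period III was 0.60 (SE 0.14), against 0.70 without. As r was -0.86 at 188 dpn and 0.21 at 28 dpn, a single slope may not hold for both. The part of the GAPDH difference in the KHK difference is thus not settled by this fit. For TKFC at 188 dpn its r with the GAPDH difference was -0.46 (permutation p = 0.0688, adjusted p = 0.241, n = 16) and rho -0.34 (permutation p = 0.192, adjusted p = 0.539). After a straight line on that difference was taken out of both genes, the r of KHK and TKFC at 188 dpn was 0.32. The relations with control probe-sets, array medians and erythroid markers were chosen after values had been seen.

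**Figure D4:**
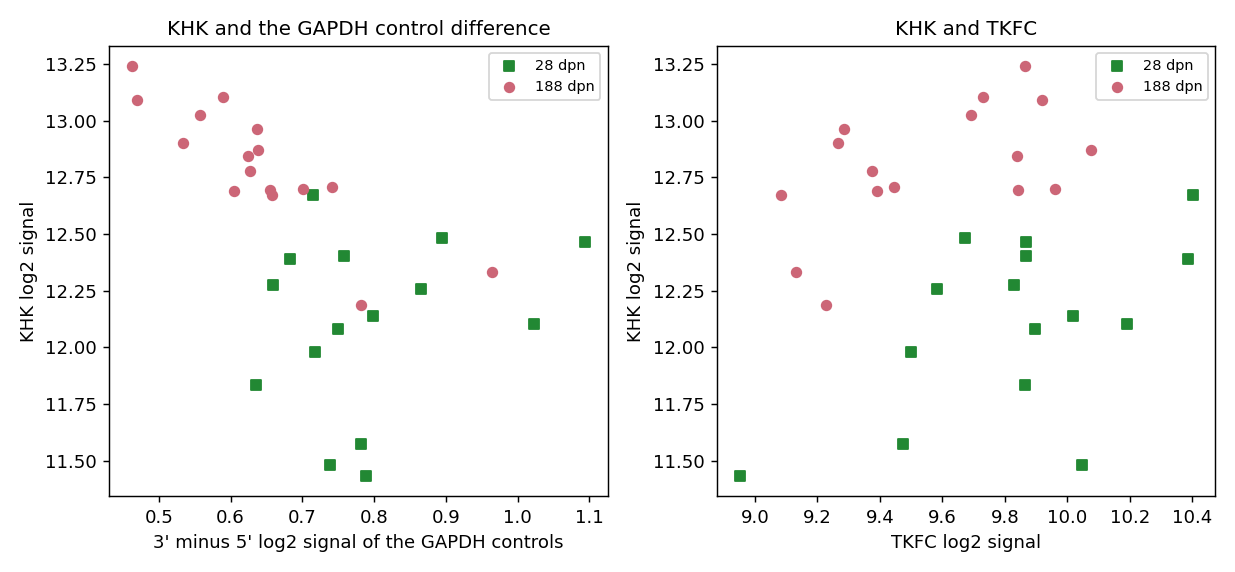
KHK log2 signal against the 3' minus 5' log2 difference of the GAPDH controls (left) and against TKFC log2 signal (right), each point 1 animal of 28 dpn (squares) or 188 dpn (circles). KHK falls along the GAPDH difference among the 16 adults (r = -0.86), and r is 0.21 among the 15 weanlings.

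The genes most alike to KHK and to SLC2A5 were ranked by Pearson's r of log2 signal over the 61 arrays, among 5503 other genes. These values are a description, as stage differences carry most of them. For KHK they were FOLR2 (r = 0.957), a folate receptor of macrophages, HAGH (0.946), a glyoxalase, CYP3A29 (0.945), a drug-metabolizing cytochrome P450, RARRES1 (0.943), a retinoid-responsive gene, and SH3GLB2 (0.941). The mean log2 signal of CYP3A29 was 4.32, 6.71, 13.66 and 14.56 over the 4 stages, and that of FOLR2 8.55, 9.85, 14.19 and 14.87. Under quantile normalization 4 of these 5 stayed among the first 5. At the other end of the ranking, named after their values were seen, stood S100G (r = -0.961), a calcium-binding protein, and IGF2 (r = -0.960), the fetal growth factor.

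For SLC2A5 the closest genes were MAN2B1 (r = 0.830), a lysosomal mannosidase, MAGEH1 (0.823), TNNI2 (0.816), a troponin of fast muscle, RHCE (0.815), a red cell antigen, and WLS (0.813), which carries Wnt proteins to the cell surface. RHCE belongs to the erythroid markers and had a mean log2 signal of 10.62 at 94 dpc and 5.79, 5.89 and 5.67 after birth. Under quantile normalization RHCE was not among the first 5. Within stages other genes came first. Over the 31 arrays of 28 dpn and 188 dpn with stage means subtracted, where KHK was well above the array median, CIB1 (r = 0.746), a calcium-binding protein, and GSTZ1 (0.725), an enzyme of tyrosine breakdown, were closest to KHK. Over the 16 fetal arrays VPS41 (r = 0.749) and KRCC1 (0.742) were closest to SLC2A5. These 4 were named after their values were seen.

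**Figure D5:**
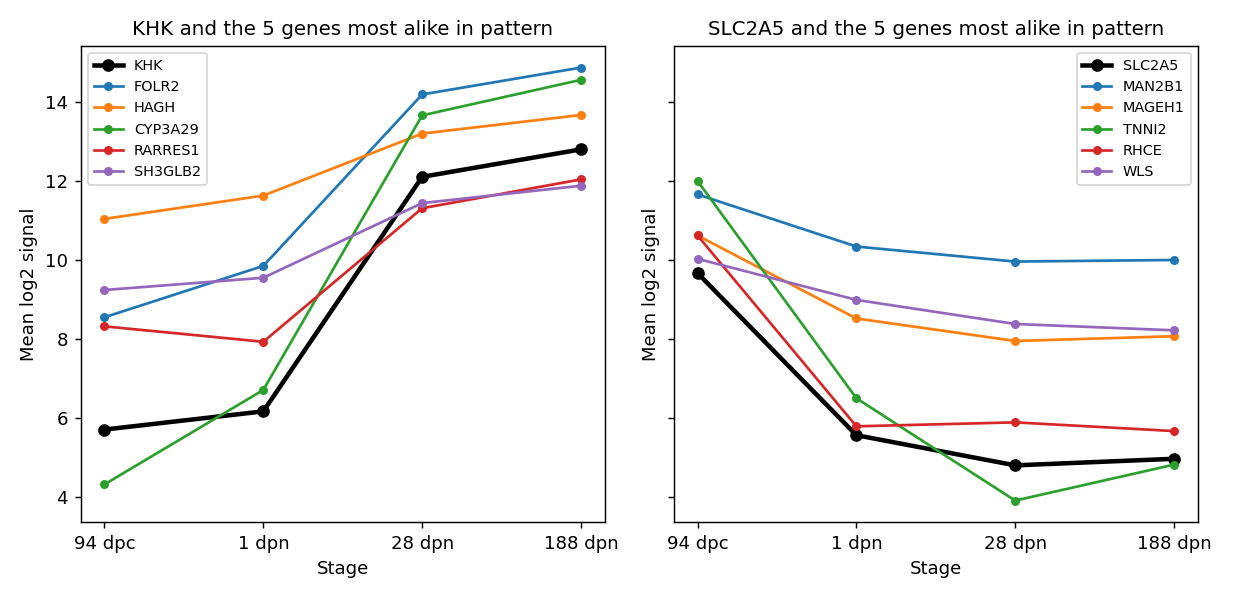
Mean log2 signal at the 4 stages for KHK (left) and SLC2A5 (right), in black, and for the 5 genes with the highest r to each over 61 arrays. All 5 genes beside KHK are higher at 188 dpn than at 94 dpc, and all 5 beside SLC2A5 are lower.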

How the data were processed

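Hepatic RNA of 61 animals was hybridised to Affymetrix GeneChip Porcine Genome arrays. The deposited values are intensities, scaled by the authors to a common level with GCOS 1.1.1 per the labels, and their 2% trimmed mean was 500.127 to 500.229 on every array. Their GC-RMA values and MAS5 calls were not used here, nor were arrays of the adequate protein group, which were not analysed here. Sex, dam and weight are not in the labels and were not modelled.

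Intensities were log2 transformed. For stages compared in pairs, the 124 control probe-sets were left out, and probe-sets were kept if 50% or more of the animals of either stage exceeded their array median and the SD was over 0.25. They were fitted with limma 3.58.1 (R 4.3.3), with 0.05 as the limit for both P and Storey's q. The fit was tested on simulated data. Of several probe-sets for a gene, the brightest on average was used. Of 23999 probe-sets, 10069 carried 1 symbol, 198 several and 13732 none in the platform annotation. Pathway genes named in the text were those called with the largest changes, up to 4 per list and period, and a fixed set of fructose genes whatever their values. Correlations used 100000 permutations of the animals (numpy 2.4.6). Arrays were the replicates, 0 of them identical, and p-values measure the spread between animals that include siblings. Alternatives covered scaling, weak signals, filters, adjustment, the choice of probe-set and 9 arrays with an outlying 3' to 5' difference of their controls. The members and all gene lists were chosen with earlier results of these data known. Some genes of the lists are not reported here.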

Additional observations from a re-analysis of the deposited data

How the results depend on the processing

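Of 43 stage differences of KHK and SLC2A5 under the alternatives, 41 stayed within 1 SD between animals of the value reported. The other 2 came with the array median as floor, which gave 4.86 for KHK in period II and -2.43 for SLC2A5 in period I and by its construction shortens differences that start from weak signals. Among the 41, 6 came from averaging the probe-sets of a gene and could not differ, as each gene had 1. The limit of 1 SD is wide for weak signals, as SLC2A5 had an SD of 1.74 at 28 dpn. Of 90 counts of pathway genes, 88 stayed within 1.5 times the reported count. With the array median subtracted, 23 genes rose and 2 fell in period II, against 15 and 12. That scaling moved the median of all probe-sets tested in period II to 0.27, against -0.14 as deposited, and under quantile normalization the median was 0.03. Over all probe-sets tested, those scalings gave 6013 higher and 2878 lower calls and 4342 and 4102, against 3510 and 5018. In period I they gave 4137 and 4003 and 3804 and 4263, against 3189 and 5091, and in period III 3627 and 2466 and 2726 and 2773, against 2008 and 3912. Of 66 calls of named pathway genes, 44 were kept under all 10 alternatives and 7 were lost under 3 or more. When the probe-sets of a gene were averaged, HK3 turned to 0.90 in period III and PCK2 to -0.15 in period II. With the array median subtracted, 1 of the 16 correlations within stages passed, against 0. At an unadjusted permutation p under 0.05, 3 of the 16 passed for r and 0 for rho. Of the 5 genes most alike to SLC2A5, 4 were kept under quantile normalization, and RHCE was not. Some planned correlations were not run. No paired analysis was possible because the labels number every animal once over all stages. Signals of SLC2A5 after birth and of KHK before 28 dpn lay below the array median in all but 1 newborn each, so their order there is not measured.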
